A study of Mus musculus with 16 samples.

Results

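SmoM2-expressing cells of the hair follicle bulge were compared with SmoM2-expressing cells of the interfollicular epidermis (IFE), both sorted from mouse tail epidermis 4 weeks after tamoxifen. SmoM2 is a constitutively active form of Smoothened, the membrane protein that passes the hedgehog signal into the cell, and its induction in epidermis is a model of basal cell carcinoma. The comparison takes 4 of the 16 arrays and rests on 1 array of bulge cells (n = 1) and 3 arrays of IFE cells (n = 3). Both carry Rosa-SmoM2-YFP, a SmoM2 and yellow fluorescent protein fusion that Cre recombinase switches on, in mice of mixed strain background. The IFE cells carried K14CREER/Rosa-SmoM2-YFP, where the keratin 14 promoter drives Cre in basal cells of the whole epidermis. The bulge cells, labelled as bulge and outer root sheath, carried K19CREERT2/Rosa-SmoM2-YFP, where the keratin 19 promoter drives Cre. Compartment and Cre driver therefore cannot be told apart, nor can compartment and sex, by the Y-linked signals given below. Untreated mice labelled with the same genotypes gave 3 IFE control arrays and 1 bulge control array. The labels of the bulge control conflict, as described below. The labels give no age, do not say whether arrays are separate mice or pools, and describe tamoxifen treatment for the K14CREER mice alone, while both the title and the source of the bulge array state 4 weeks after it.

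A gene was called higher or lower in the bulge where its log2 signal in the bulge array lay outside the range of the 3 IFE arrays and at least 1 log2 (2-fold) from their mean. With 1 bulge array this is a description of these arrays. A moderated linear model (limma) over all 16 arrays was fitted beside it, in which the lone bulge array is assumed to vary like the groups that have replicates. Its p-values measure only the spread between these arrays, which may be technical.

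In the absence of ligand, the receptor Patched holds Smoothened inactive. Active Smoothened lets GLI transcription factors switch on targets that include Gli1, Ptch1 and Hhip, the last of which binds and restrains hedgehog ligands. The bulge is the lower end of the permanent part of the hair follicle and houses its stem cells, marked in mice by CD34 and keratin 15. The interfollicular epidermis renews itself from its own basal layer, and in tail skin it forms scales that express hair-type keratins.

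At 4 weeks, 526 of the 14285 genes tested were higher in the bulge array, or 3.68% of them, and 224 were lower, or 1.57%. Of these, 103 higher and 29 lower genes differed by at least 2 log2. The median difference over all genes tested was -0.04. The highest differences belonged to the hair-type keratins Krt84 and Krt36, and lower genes included Tgfb2, Fst and Aldh3a1. The 3 IFE arrays themselves were far apart, with a median SD of 0.360 log2 per gene, and 27.6% of genes spanned 1 log2 or more among them. The bulge SmoM2 array lay closer to IFE replicate 3, with a median absolute difference of 0.223 log2, than any pair of IFE replicates lay to each other (0.358 to 0.484). It differed from replicates 1 and 2 by medians of 0.365 and 0.433, and from the bulge control array by 0.205. Without replicate 3 the counts were 833 higher and 400 lower. Nearest to the size limit, Pfdn4 (9.68 in the bulge array against an IFE mean of 8.68) and Sfxn3 (8.11 against 9.11) were just inside it. Heyl (6.75 against 5.75) and Dap (9.90 against 10.90) were just outside.

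**Figure D1:**
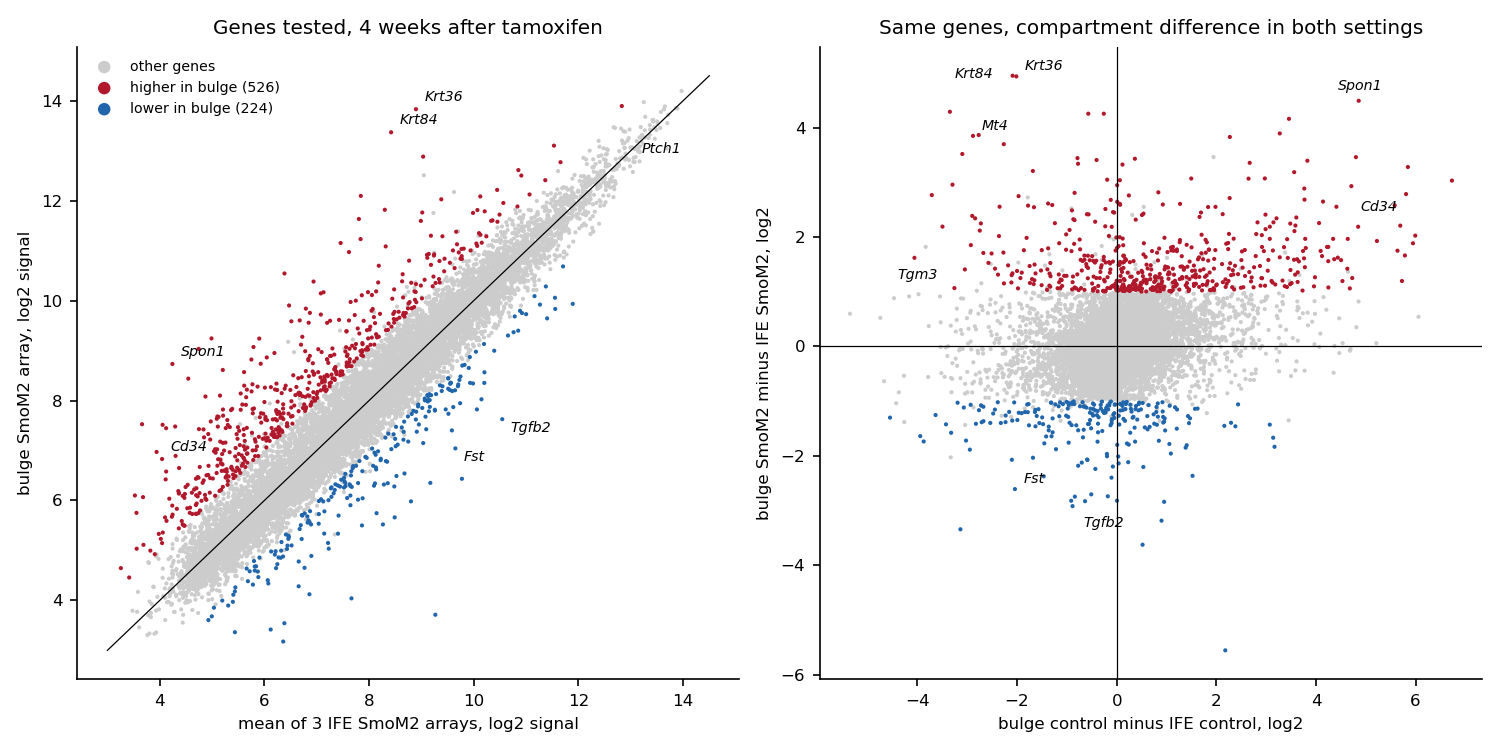
Left, log2 signal of each of the 14285 genes tested in the bulge SmoM2 array (vertical axis) against the mean of the 3 IFE SmoM2 arrays (horizontal axis), with the line of equality. Red points are the 526 genes called higher and blue points the 224 called lower. Right, for the same genes, the bulge minus IFE difference with SmoM2 (vertical axis) against that in untreated cells (horizontal axis), both in log2. Krt84, Krt36 and Mt4 lie at the upper left, while Spon1 and Cd34 lie at the upper right.

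The bulge label was first checked against bulge markers, of which 3 of 22 tested were higher (Cd34, Mgp and Krt19) and 2 were lower (Fst and Nfatc1). Over all genes 3.68% were higher and 1.57% lower, and every list count below is to be read beside these shares. Krt19 and Cd34 are also tied to how bulge cells are obtained, as Cre driver of these mice and as sorting marker. Cd34, the surface protein used to sort mouse bulge cells, had a log2 signal of 6.83 in the bulge array and 3.68, 4.10 and 4.35 in IFE replicates 1 to 3. It was thus above every IFE array by at least 2 log2, but below the 9.72 of the bulge control array. Krt19, the keratin whose promoter drove Cre in the bulge mice, read 7.02 in the bulge array against 4.88, 5.44 and 4.97 in the IFE arrays and 9.88 in the bulge control. Mgp, an inhibitor of calcification in the matrix, read 9.61 against 6.37, 7.73 and 8.18, and 10.69 in the bulge control. All 3 markers were therefore between the IFE SmoM2 arrays and the untreated bulge. Krt15, a basal keratin enriched in the bulge, was 13.20 in the bulge array against 12.33, 12.31 and 12.51, a difference of 0.81 that is outside the IFE range and under the size limit.

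Several follicle regulators differed little between the compartments after SmoM2. Lhx2, a transcription factor of hair follicle stem cells, read 11.61 in the bulge array and 11.65, 11.74 and 11.68 in the IFE arrays. In untreated cells the same gene read 11.89 in the bulge and 6.86 to 7.65 in IFE. Lgr5, a marker of lower bulge and hair germ stem cells, read 10.34 in the bulge array and 9.69, 10.56 and 10.60 in IFE, inside their range. Tbx1, another bulge transcription factor, read 10.06 against 9.55, 11.48 and 9.01. Sox9, needed for follicle stem cells, read 10.49 against 8.64, 10.77 and 10.56. For these 4 genes the SmoM2 difference was between -0.08 and 0.50, while the difference between untreated bulge and untreated IFE was 4.68 for Lhx2, 5.21 for Lgr5, 3.97 for Tbx1 and 1.59 for Sox9. Tcf7l1, a further transcription factor of the list, differed more with SmoM2, by 0.74 (9.77 against an IFE mean of 9.03), and was not called. Its dimmer probe set differed by 0.05. Nfatc1, a transcription factor linked to bulge quiescence, was lower in the SmoM2 bulge, at 8.32 against 8.99, 10.56 and 9.56, and it was lower in the bulge control as well (6.19 against 7.91 to 9.05). Over the whole marker list the median difference was 0.27 with SmoM2 and 1.25 in untreated cells. With SmoM2 its sign depended on the IFE array: the medians against replicates 1 to 3 were 0.89, -0.20 and 0.47.

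The markers of the neighbouring upper follicle were mixed, with 1 of 8 higher and 1 lower. Lgr6, a stem cell receptor of the isthmus, was 7.40 in the bulge array and 8.84, 10.52 and 9.39 in IFE, a difference of -2.18. Cst6, a protease inhibitor of differentiating follicle and epidermal cells, was 12.61 against 8.86, 12.57 and 11.13, so its distance from replicate 2 was small. Of the pan-basal keratins, Krt14 read 13.27 against 13.42, 12.83 and 13.56, inside the IFE range. Krt5 read 13.04 against 13.88, 13.68 and 13.49, below all 3 IFE arrays at a difference of -0.64, which is under the size limit.

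**Figure D2:**
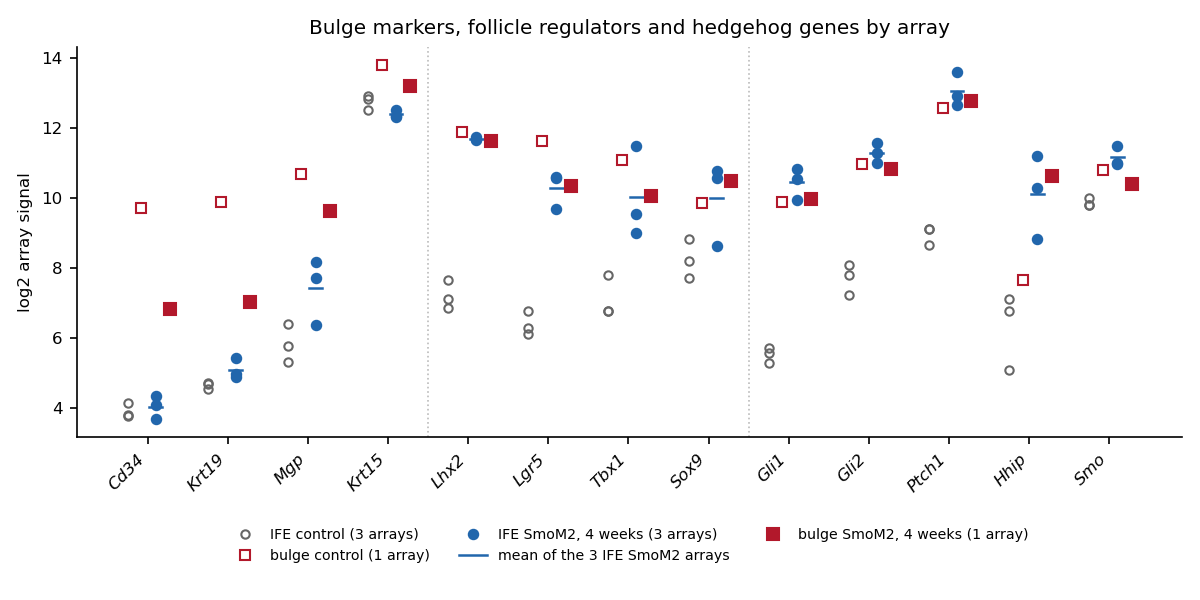
Log2 array signal (vertical axis) of 4 bulge markers, 4 follicle regulators and 5 hedgehog genes. Filled red squares are the bulge SmoM2 array, filled blue circles the 3 IFE SmoM2 arrays with a bar at their mean, open red squares the bulge control and open grey circles the 3 IFE controls. Cd34, Krt19 and Mgp of the bulge SmoM2 array lie between IFE SmoM2 and the bulge control, while Lhx2, Gli1 and Ptch1 of the SmoM2 arrays of both compartments lie close together.

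Hedgehog pathway genes had similar or lower signals in the SmoM2 bulge than in the SmoM2 IFE. Of 19 tested, 0 were called higher and 3 lower, with a median difference of -0.46, and 12 of the 19 lay below all 3 IFE arrays at any size. Over all genes 22.1% lay below all 3 and 19.7% above all 3. The medians against IFE replicates 1 to 3 taken singly were -0.64, -0.45 and -0.22. Gli1, the transcription factor that is itself a hedgehog target, read 9.96 in the bulge array and 10.55, 10.83 and 9.95 in IFE. Ptch1, the receptor and target, read 12.78 against 13.60, 12.92 and 12.64. Both lay inside the IFE range, their difference was -0.48 and -0.27, and the adjusted p of limma was 0.988 for each. The dimmer probe sets of Ptch1 differed from the IFE mean by -1.39 and 0.08. Gli2, the main activating GLI factor, was 10.83 against 11.58, 11.28 and 11.00, just below the IFE arrays. Smo itself was 10.39 against 11.48, 10.98 and 11.01, also below all 3 at a difference of -0.77. Whether its probe set also reads the SmoM2 fusion is not given in the sources used here. Hhip read 10.64 against 10.29, 11.19 and 8.84, inside the range. Shh, the ligand, was near the low end of the arrays throughout, at 5.34 against 6.07, 5.42 and 5.57.

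The 3 lower hedgehog genes were Mycn, Evc and Ccnd2. Mycn, a proto-oncogene and hedgehog target, read 9.0 against 11.80, 9.09 and 10.28, so it was close to replicate 2 and far from replicate 1. Evc, a protein of the cilium base that acts beside Smoothened, read 6.38 against 7.71, 7.67 and 7.21. Ccnd2, a D-type cyclin, read 9.68 against 10.56, 10.54 and 11.24. None of the 3 passed limma.

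The untreated cells differ from this picture. The bulge control array had Gli1 at 9.89 and Ptch1 at 12.57, close to the SmoM2 arrays, whereas the 3 IFE controls had Gli1 between 5.30 and 5.73 and Ptch1 between 8.66 and 9.11. The title and treatment of the bulge control state no tamoxifen, yet its source label names SmoM2-positive cells and its description wild-type CD34 cells. What its hedgehog signal reflects was not tested. Every difference between SmoM2 and control bulge has to be read with that value: Gli1 differed by 0.07 and Ptch1 by 0.21 between the 2 bulge arrays, against 4.91 and 4.09 between SmoM2 and control IFE.

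Genes of the hair shaft, inner root sheath and tail scale made up the list with the most higher genes, 11 of 22 tested with 0 lower, and a median difference of 1.10. The medians against the 3 IFE arrays taken singly were 0.98, 1.15 and 0.95, so no replicate alone set this value. The 11 were Krt84, Krt36, Krt25, Krt28, Krt35, Padi3, Krt73, Dlx3, Krt27, Krt71 and Foxn1. Krt25, Krt27, Krt28, Krt71 and Krt73 are keratins of the inner root sheath, the sleeve that moulds the growing hair. Krt35, Krt36 and Krt84 are hard, hair-type keratins. The sequences before the start of 4 of these keratin genes are shown because the genes were higher together. They are the 250 bases before the annotated start from RefSeq (GRCm38.p6), 5′ to 3′ on the gene's strand, all on the minus strand, with matches to TATAAA on either strand in capitals. Krt84 lies at chr15:101532821-101533070, Krt36 at chr11:100105627-100105876, Krt25 at chr11:99322952-99323201 and Krt28 at chr11:99374904-99375153.
Krt84: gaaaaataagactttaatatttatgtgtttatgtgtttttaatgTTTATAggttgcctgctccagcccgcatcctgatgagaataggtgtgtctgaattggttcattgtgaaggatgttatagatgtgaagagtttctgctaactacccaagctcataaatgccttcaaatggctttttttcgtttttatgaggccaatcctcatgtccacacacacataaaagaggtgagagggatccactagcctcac
Krt36: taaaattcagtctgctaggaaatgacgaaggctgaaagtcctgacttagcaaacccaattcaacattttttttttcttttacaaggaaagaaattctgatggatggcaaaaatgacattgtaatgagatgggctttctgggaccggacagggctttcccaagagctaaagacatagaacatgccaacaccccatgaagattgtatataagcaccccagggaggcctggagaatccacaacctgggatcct
Krt25: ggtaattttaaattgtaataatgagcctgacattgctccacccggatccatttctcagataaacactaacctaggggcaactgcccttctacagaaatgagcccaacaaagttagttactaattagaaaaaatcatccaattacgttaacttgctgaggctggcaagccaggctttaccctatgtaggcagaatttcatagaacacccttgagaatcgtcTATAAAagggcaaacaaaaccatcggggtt
Krt28: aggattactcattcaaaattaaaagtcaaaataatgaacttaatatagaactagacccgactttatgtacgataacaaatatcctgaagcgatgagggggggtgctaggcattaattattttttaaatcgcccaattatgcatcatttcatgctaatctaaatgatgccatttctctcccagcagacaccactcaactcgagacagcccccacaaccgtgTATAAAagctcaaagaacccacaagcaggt
A window was held for 9 of the 11 genes. TATAAA, searched on both strands, was found in 6 of the 9 windows and in 12.4% of all 32851 windows of that length. On the same terms CTTTGAA, the core of the TCF/LEF motif, was found in 0 of the 9 and in 4.46% of all windows. The GLI motif GACCACCCA was found in 0 of the 9, in 0 of 15 windows of 14 hedgehog genes and in 0.225% of all. In the hedgehog windows CTTTGAA was found in 1, that of Mycn, and TATAAA in 0. No window of either set held more than 1 of these motifs. A match is a description of letters, and a window without a match shows only that these letters are absent from it.

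Krt84 had the highest signal in the bulge array relative to IFE, at 13.37 against 8.24, 7.18 and 9.84, a difference of 4.95 (30.8-fold, limma SE 1.05). Krt36 read 13.83 against 9.36, 6.77 and 10.56, a difference of 4.93. Both were above every IFE array by more than 3 log2, but the IFE arrays themselves had an SD of 1.34 and 1.93, and the adjusted p of limma was 0.169 and 0.317. In the untreated epidermis the order was the other way: the IFE controls had Krt84 at 12.30 to 12.92 and Krt36 at 12.87 to 13.22, against 10.49 and 11.04 in the bulge control. The level in the SmoM2 bulge array was thus close to that of control IFE, and the IFE SmoM2 arrays were the low group. For 4 further genes among the 12 highest, the bulge was likewise higher with SmoM2 and lower in untreated cells. Of these, Mt4 is described with the suprabasal genes. Gsta2, a glutathione transferase, read 9.03 against 5.06, 4.16 and 5.01, Gpm6a, a membrane glycoprotein, read 7.53 against 3.43, 3.53 and 4.03, and Elmod3 read 11.15 against 7.06, 7.67 and 7.64. The bulge control had Gsta2 at 5.11, Gpm6a at 3.49 and Elmod3 at 7.86, about as low as the IFE SmoM2 arrays. The IFE controls had them at 8.07 to 8.73, 5.41 to 7.54 and 9.57 to 11.02. A second, dim probe set of Elmod3 had the opposite sign, at -0.39.

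The inner root sheath keratins Krt25 and Krt28 followed another course. Krt25 read 8.61 in the bulge array against 5.19, 3.90 and 6.51 in the SmoM2 IFE, and 5.34 in the bulge control against 4.88 to 7.10 in the IFE controls. Krt28 read 8.82 against 5.50, 5.07 and 6.68, and 6.29 in the bulge control against 4.28 to 5.36. Both were therefore highest in the SmoM2 bulge array among these 8 arrays. Krt35 read 8.95 against 6.15, 5.79 and 6.64, a difference of 2.76, and passed limma (adjusted p = 0.034). Padi3, an enzyme that converts arginine to citrulline in inner root sheath and hair proteins, read 7.22 against 4.65, 5.08 and 5.17 and passed as well (adjusted p = 0.034), with 8.98 in the bulge control. Dlx3, a transcription factor of hair differentiation, read 7.62 against 5.98, 5.75 and 6.75, and Foxn1, the nude gene, read 6.85 against 6.45, 4.70 and 5.65. Like Krt84 and Krt36, Foxn1 was lower in the untreated bulge, at 5.50 against 7.05 to 8.09 in the IFE controls. Krt75, the keratin of the companion layer that lies between the inner and outer root sheaths, read 10.14 against 7.02, 6.24 and 7.97, a difference of 3.07. The hair-shaft keratins Krt31, Krt33a, Krt33b, Krt81, Krt83 and Krt86, named after their values were seen, were not called and had differences of -0.69 to -0.38, and that of Krt34 was 0.34.

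**Figure D3:**
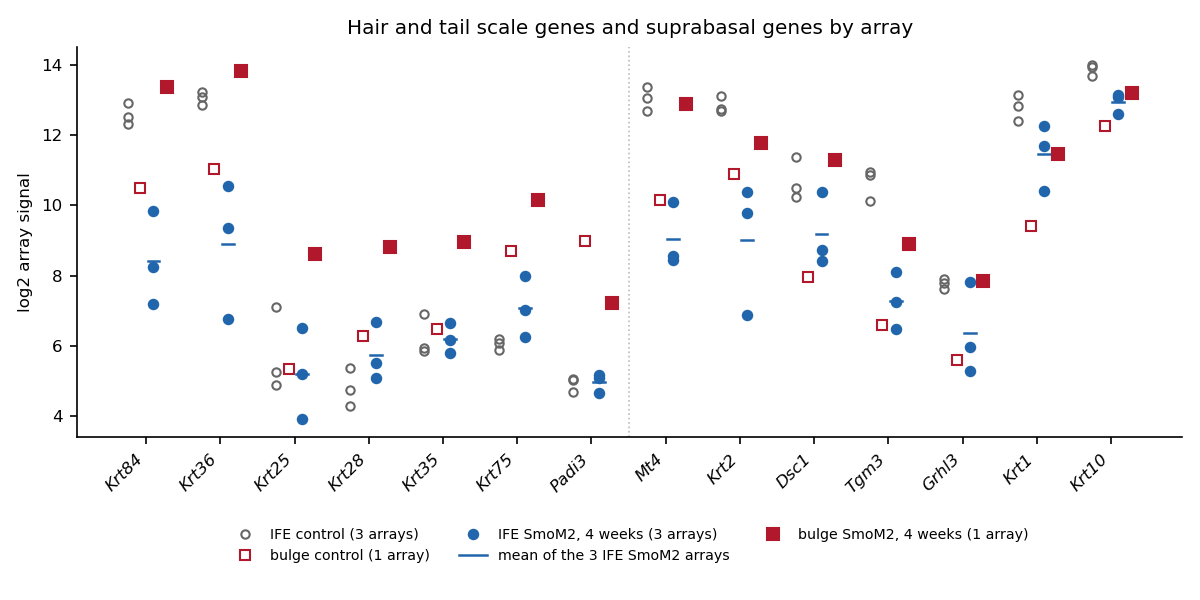
Log2 array signal (vertical axis) of 7 hair, companion layer and scale genes and 7 suprabasal genes, with the symbols of the marker plot. In the bulge SmoM2 array Krt84, Krt36 and Mt4 are near the level of the IFE controls, at 12.88 or more, and the IFE SmoM2 arrays are lower. Krt25, Krt28 and Krt35 are highest in the bulge SmoM2 array.

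Genes of suprabasal epidermal differentiation were higher in 7 of 23 and lower in 1, with a median difference of 1.06. The opposite sign was seen in untreated cells, where the median was -1.34 and 13 of the 23 were lower in the bulge. This median rested on replicates 1 and 2: it was 1.98 and 1.53 against them and -0.09 against replicate 3. Mt4, a metallothionein of squamous epithelia, read 12.88 against 8.44, 8.56 and 10.10, while the untreated cells had 10.14 in the bulge and 12.67 to 13.36 in IFE. Krt2, a keratin of the upper spinous layer, read 11.76 against 9.78, 6.89 and 10.37. Dsc1, a desmosomal cadherin, read 11.30 against 8.42, 8.74 and 10.38. For these 3 the bulge array was well clear of every IFE array. Lce1a2, a late cornified envelope gene, was closer to replicate 3, at 9.03 against 5.45, 6.91 and 8.73. Tgm3, a transglutaminase of scale and hair, read 8.89 against 6.47, 7.24 and 8.11, Grhl3, a transcription factor of the skin barrier, 7.84 against 5.98, 5.28 and 7.81, and Dsg1a, a desmosomal cadherin, 10.83 against 10.13, 9.56 and 9.63. The broad suprabasal keratins did not differ beyond the IFE range, with Krt1 at 11.46 against 10.42, 11.69 and 12.27. Krt10 read 13.20 against 13.08, 12.59 and 13.14, barely above it. Tgm5, a transglutaminase of the cell envelope, was the 1 lower gene, at 7.87 against 10.05, 9.42 and 9.35, and it was near 5.36 to 5.86 in all 4 control arrays.

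Of 26 BMP and TGF-β genes tested, 5 were higher and 5 lower, with a median of 0.08. The medians against IFE replicates 1 to 3 were -0.27, 0.30 and 0.19. BMP signals restrain hair follicle stem cells from activation and work through SMAD proteins, whose textbook targets are the ID genes. Id1, Id2, Id3 and Id4, inhibitors of basic helix-loop-helix factors, were all among the higher genes. Id1 read 11.75 against 8.35, 11.13 and 10.47, Id2 11.95 against 10.17, 11.28 and 10.25, and Id3 11.00 against 9.13, 9.94 and 9.73. Id4 read 11.13 against 10.08, 9.13 and 9.83. Bambi, a decoy receptor induced by BMP, read 9.13 against 7.72, 7.93 and 7.60. The bulge control held the same 4 ID genes at 10.88 to 11.85. The lower genes were 3 ligands and 2 antagonists. Tgfb2, a TGF-β ligand of the hair germ, read 7.63 against 10.63, 10.87 and 10.13, a difference of -2.92, and its other 3 probe sets were lower by 1.93 to 3.21. In untreated cells Tgfb2 read 7.37 in the bulge and 7.96 to 8.50 in IFE, so the IFE SmoM2 arrays were the high group. Tgfb3 read 7.95 against 10.58, 9.74 and 8.89. Inhba, a subunit of activin, read 5.79 against 6.19, 6.55 and 7.88. Fst, which binds and blocks activin, read 7.04 against 8.81, 10.74 and 9.39. Grem1, a secreted BMP antagonist, read 5.34 against 6.42, 7.89 and 7.12. In untreated cells Fst was lower in the bulge too, whereas Grem1 was higher there (6.67 against 4.98 to 5.41). None of the 10 passed limma.

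Of 13 Wnt/β-catenin targets tested, 0 were higher and 3 lower, with a median of -0.02 (0.13, -0.27 and -0.25 against IFE replicates 1 to 3). β-catenin carries the Wnt signal to TCF and LEF factors, and its negative-feedback targets are common readouts of the pathway. Axin2, a scaffold of the β-catenin destruction complex, read 6.29 in the bulge array against 8.18, 7.24 and 7.51. Apcdd1, a Wnt inhibitor, read 8.56 against 10.20, 10.09 and 10.32. Znrf3, which clears Wnt receptors from the surface, read 8.19 against 9.95, 9.05 and 9.16. All 3 were also lower in the untreated bulge, Axin2 by 2.10, Apcdd1 by 3.94 and Znrf3 by 1.64. Lef1, a Wnt-responsive factor of the hair germ, did not separate the compartments, at 7.40 against 7.25, 7.26 and 7.34, and Ctnnb1, which encodes β-catenin, read 13.42 against 13.65, 13.21 and 13.26.

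Among 25 Wnt ligands, receptors and antagonists, 4 were higher and 2 lower. The 2 lower genes were ligands: Wnt7b at 8.02 against 10.42, 10.83 and 9.19, and Wnt10a at 6.91 against 7.67, 8.23 and 8.48. The 4 higher genes were the receptors Fzd5 and Fzd4 and the secreted antagonists Sfrp1 and Sfrp2. Fzd5 read 9.83 against 7.73, 8.30 and 8.18 and Fzd4 6.58 against 5.63, 5.41 and 5.32. Sfrp2 read 6.97 against 5.14, 4.99 and 5.88. Sfrp1 read 9.04 against 6.69, 8.86 and 7.34, close to replicate 2. Wif1, another antagonist, spanned 7.71 to 12.31 within the IFE arrays and read 9.89 in the bulge array.

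**Figure D4:**
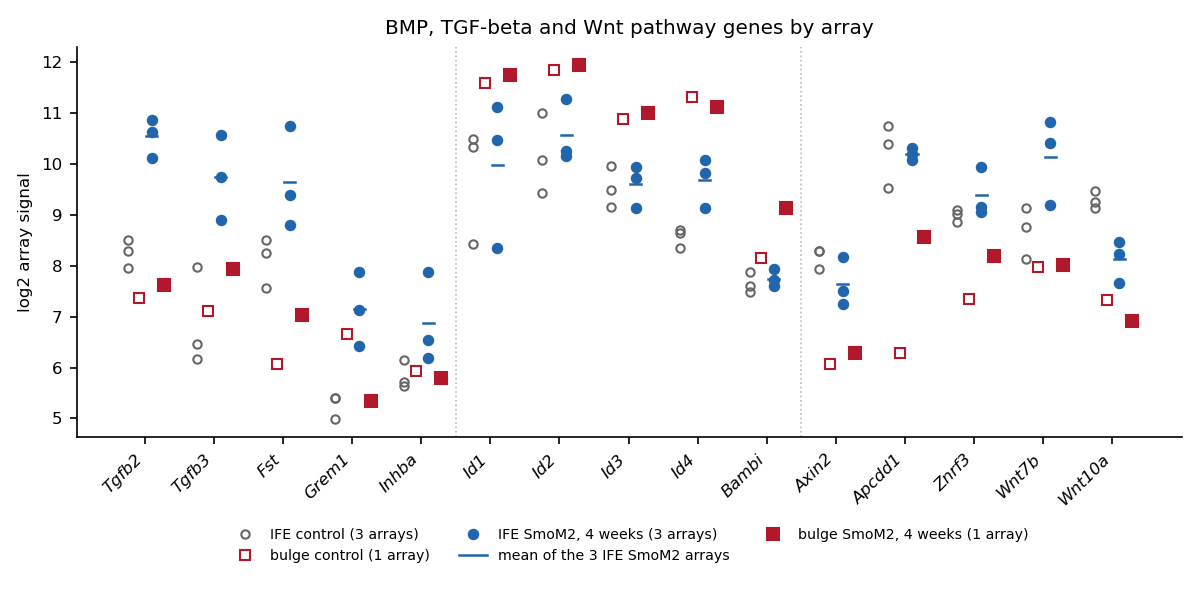
Log2 array signal (vertical axis) of 10 BMP and TGF-β genes and 5 Wnt genes, with the symbols of the marker plot. Tgfb2, Fst, Axin2 and Wnt7b of the bulge SmoM2 array lie below all 3 IFE SmoM2 arrays and Id1 to Id4 above them, and for most of these genes the bulge SmoM2 array lies near the bulge control.

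Immediate-early genes, which many stimuli including cell dissociation induce within minutes, were higher in 8 of 19 with 0 lower, and a median of 1.04. The median was 2.41 against replicate 1, 0.24 against replicate 2 and 0.53 against replicate 3, so most of it was against replicate 1. Atf3, a stress-induced transcription factor, was above every IFE array by at least 2 log2, at 10.97 against 6.66, 7.32 and 8.87. Jun read 13.10 against 9.46, 12.44 and 12.69. Nr4a1, an orphan nuclear receptor, read 11.38 against 8.18, 10.61 and 10.21. Zfp36, which destabilises cytokine messages, read 10.93 against 7.94, 10.28 and 9.51. Wound and barrier genes were higher in 3 of 15 (S100a9, Sprr2d and Defb3), with medians of 3.65, 1.21 and -0.12 against replicates 1 to 3. S100a9, a calcium-binding alarmin, read 11.59 against 4.47, 11.43 and 11.06, which separates replicate 1 from the other IFE arrays far more than the bulge from either. Among 27 growth factor genes 3 were higher and 1 lower. Igfbp4, a binding protein for insulin-like growth factors, was lower at 9.93 against 12.41, 12.27 and 10.99. Ereg, a ligand of the EGF receptor, was higher at 6.47 against 4.01, 4.40 and 5.77. Dusp6, a feedback phosphatase of the ERK pathway, was 12.50 against 9.10, 12.04 and 11.59, and Igfbp3 was 8.98 against 8.34, 5.88 and 8.43.

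Cell cycle genes were higher in 3 of 29 (Birc5, Bub1 and Cdk1) with 0 lower. Their median of 0.51 came from replicate 2, against which it was 1.49, while it was 0.18 and -0.05 against replicates 1 and 3. Mki67, the proliferation marker, read 11.48 against 11.54, 9.91 and 11.38. Birc5, which encodes survivin, read 10.06 against 8.05, 8.38 and 9.52. The cell cycle inhibitor Cdkn1a was inside the range at 10.64 against 10.26, 10.35 and 10.89. Gadd45a, a stress and p53 target, was higher at 9.60 against 7.60, 6.88 and 8.36.

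Hypoxia and glycolysis genes had 4 of 15 lower and 0 higher, with a median of -0.36 and medians of -0.21, -0.46 and -0.57 against the single replicates. Pfkl, liver-type phosphofructokinase, read 6.49 against 9.26, 8.14 and 8.17. Hk1, a hexokinase, read 7.82 against 9.22, 9.47 and 9.08, and Bnip3, a mitophagy receptor, read 8.24 against 9.70, 9.52 and 9.30. Slc2a1, the glucose transporter GLUT1, read 10.28 against 10.45, 12.02 and 11.66. Pfkl, Hk1 and Bnip3 were also lower in the untreated bulge, by 1.68, 1.76 and 1.15.

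Genes that anchor basal cells to the basement membrane had 2 of 13 lower and 0 higher. Lamb3, a chain of laminin-332, read 9.37 against 11.02, 11.29 and 9.98. Itgb4, its integrin receptor in hemidesmosomes, read 8.70 against 9.71, 10.20 and 9.44. Of 23 basement membrane and matrix genes 2 were higher and 2 lower. Frem2, a protein of the epidermal basement membrane, read 7.82 against 10.28, 9.99 and 9.92, and Fbln1 read 7.32 against 8.55, 8.28 and 8.58. Lamb1, a laminin chain, was higher at 10.29 against 9.90, 8.26 and 9.48, and so was Fras1 at 7.92 against 7.50, 5.83 and 7.32. Among 15 adhesion molecules, Ncam1 was lower at 6.35 against 8.42, 9.09 and 7.56 and Cdh13, T-cadherin, at 7.09 against 7.72, 9.11 and 8.70. P-cadherin, Cdh3, was inside the range at 8.37 against 5.86, 8.51 and 8.22. The Notch list (14 genes) and the sterol and fatty acid list (16 genes) had 0 called in either direction. Over all genes 3.68% were called higher and 1.57% lower, so 0 in lists of this size says little. The 6 markers of the interfollicular basal layer also had 0 called. All 6 nevertheless read higher in the bulge array than the IFE mean, with a median difference of 0.64. Of these, 3 lay above all 3 IFE arrays, while Thbs1 lay inside their range (8.72 against 6.85, 6.64 and 8.76). These IFE markers were thus not lower in the array labelled bulge. In untreated cells their median difference was -0.44, but they were split, with 2 called higher in the bulge and 3 lower. Of 16 genes of the embryonic hair placode and germ, 1 was lower, Tgfb2. The interferon list had 3 of 12 higher: Usp18, Oasl2 and Ifit2.

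**Figure D5:**
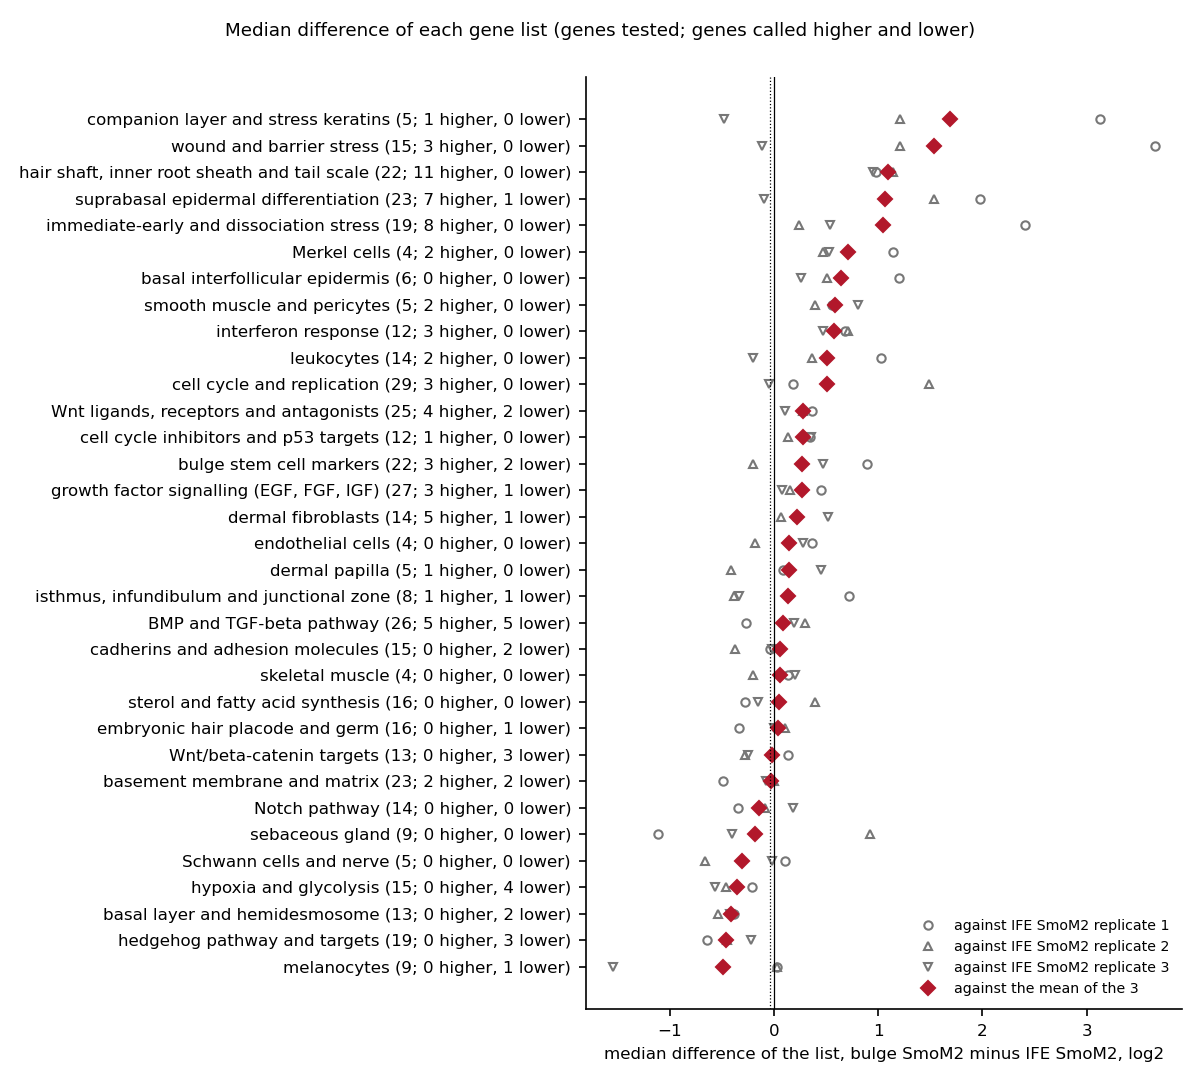
Median bulge minus IFE difference in log2 (horizontal axis) of each of 33 gene lists (vertical axis, with the genes tested and those called higher and lower). Red diamonds are against the mean of the 3 IFE SmoM2 arrays and open symbols against each of them. The dotted line is the median of all genes, -0.04. The 3 open symbols lie together at 0.95 to 1.15 for the hair and scale list and far apart for the wound list, -0.12 to 3.65.

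In limma, 16 genes passed an adjusted p of 0.05, or 0.112% of those tested, all higher in the bulge, while 0 were lower. The lowest adjusted p among lower genes was 0.123, and at an unadjusted p under 0.05 there were 481 higher and 316 lower genes. All 16 were outside the IFE range. Chn2, a GTPase-activating protein for Rac, had the lowest adjusted p (0.0026), at 7.48 against 4.25, 4.17 and 4.46. Spon1, a secreted matrix protein, had the largest difference of the 16, 4.49 (SE 0.70, adjusted p = 0.039), at 8.73 against 3.88, 3.68 and 5.17. Klhl29 read 7.51 against 3.56, 4.14 and 4.47. In the untreated bulge Chn2, Spon1 and Klhl29 stood at 7.85, 8.96 and 9.03, so these 3 genes were high in both bulge arrays and low in all 6 IFE arrays of the comparison. In all, 10 of the 16 were also called higher in the untreated bulge, namely these 3, Lyz1, Rap1gap2, Padi3, Lrrc8c, Mia, Plce1 and Ppp1r36.

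The other 6 were not, and each was highest in the SmoM2 bulge array among these 8 arrays. Ang, a secreted ribonuclease, read 9.24 against 4.65, 5.71 and 4.61, with 5.11 in the bulge control. Car6, a secreted carbonic anhydrase, read 8.10 against 4.88, 5.03 and 5.54, with 5.11 in the bulge control. AA467197 read 7.45 against 3.96, 4.30 and 4.10, with 4.26 there. Saa1, an acute-phase protein, read 5.75 against 3.78, 3.53 and 3.36. Krt35 is described above, and C1qa, a chain of complement C1q made mainly by macrophages, read 6.22 against 4.52, 4.73 and 4.72. The probe sets of Ang, Lyz1 and Saa1 are of the kinds that can read related genes, and another probe set of Lyz1 differed by -0.02 at a signal near the bottom of the arrays. The number passing depended on single arrays: it was 6 without IFE replicate 1, 8 without replicate 2 and 29 without replicate 3, and 8, 6 and 7 without IFE control replicates 1, 2 and 3. Fitted on the 4 arrays alone, 0 genes passed limma, with 414 at an unadjusted p under 0.05.

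The 12 highest also held Wfdc17, Wfdc18, Ppp1r3b and Lyz1. Wfdc17, a secreted protein of the whey acidic protein family, read 12.10 against 6.47, 8.54 and 8.52. Wfdc18, of the same family, read 11.63 against 5.50, 8.34 and 9.58. Ppp1r3b, which targets protein phosphatase 1 to glycogen, read 10.54 against 6.46, 5.55 and 7.14 and was as high in the bulge control (10.60).

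The lowest differences included 3 Y-linked genes, Eif2s3y, Kdm5d and Uty. Their mean log2 signal was 3.48 in the bulge SmoM2 array, 8.41, 7.58 and 6.02 in IFE replicates 1 to 3 and 6.35 in the bulge control. Of the 4 arrays compared, only the bulge array was at the low end for these genes, so compartment and sex cannot be told apart. In IFE control replicates 1 to 3 Eif2s3y read 3.78, 9.86 and 3.64, so sex was not balanced between the control groups either. The part of sex in the other differences was not tested. Aside from these, Tnfrsf11b, the decoy receptor osteoprotegerin, read 4.04 against 8.27, 9.0 and 5.72. Aldh3a1, an aldehyde dehydrogenase of epithelia, read 6.43 against 11.02, 9.34 and 8.96, and was as low in the bulge control (6.97 against 9.10 to 10.76 in control IFE). Cacna2d2, a calcium channel subunit, read 6.35 against 9.71, 8.28 and 9.51. Kcne4, a potassium channel subunit, read 5.66 against 8.26, 9.37 and 7.83. Fbn2, a fibrillin of the extracellular matrix, read 5.98 against 8.43, 9.78 and 8.20. Cyp27a1, the sterol 27-hydroxylase, read 5.52 against 9.44, 7.44 and 7.91, Lgi3 read 4.12 against 7.35, 7.05 and 6.19, and Tox3 read 3.42 against 7.70, 4.52 and 6.14. Cacna2d2, Lgi3, Tox3, Tnfrsf11b and Fbn2 were at or below 6.60 in all 4 control arrays, and Kcne4 and Cyp27a1 at 5.77 to 7.14. The IFE SmoM2 arrays were thus the high group for these genes.

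Markers of other cell types were read in the same arrays. Their counts stand beside 3.68% higher and 1.57% lower over all genes, and in such short lists 1 call or 0 says little. In bulk samples, fewer cells of a type and less RNA per cell cannot be told apart. Leukocyte markers had 2 of 14 higher (Lyz2 and H2-Aa), and their mean level was 6.46 in the bulge array and 5.46 to 6.51 in IFE. Ptprc, which encodes the pan-leukocyte protein CD45, read 5.88 against 4.05, 4.49 and 6.13, inside the IFE range. Smooth muscle and pericyte markers had 2 of 5 higher, with a mean level of 6.77 against 5.44 to 5.65: Tagln at 9.07 against 5.72, 5.70 and 5.96, and Acta2 at 8.99 against 6.73, 6.62 and 6.98. Both were higher still in the bulge control (11.72 and 12.38), while the smooth muscle myosin Myh11 stayed near the low end at 4.79 against 4.33, 4.79 and 4.79. Merkel cell markers had 2 of 4 higher, the simple-epithelium keratins Krt8 and Krt18, which were also higher in the bulge control, with a mean level of 6.25 against 5.06 to 5.87. Fibroblast markers had 5 of 14 higher and 1 lower, with a mean level of 7.11 against 6.69 to 6.82. Col3a1, a fibrillar collagen, read 7.26 against 4.20, 4.45 and 5.89, and Dcn, a matrix proteoglycan, read 9.83 against 12.53, 10.69 and 11.46. Dermal papilla markers had 1 of 5 higher (Prom1), with a mean level of 6.43 against 5.67 to 6.46. Melanocyte markers had 1 of 9 lower (Pmel), with a mean level of 6.07 against 6.07 to 7.42. Endothelial, Schwann cell, skeletal muscle and sebaceous gland markers had 0 called, and the sebaceous mean level was 8.43 against 7.07 to 9.19. The part of these cells in the differences above was not tested.

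The same contrast between untreated bulge and untreated IFE gave 1023 higher genes (7.16%) and 803 lower (5.62%), again with 1 bulge array. Of the 526 genes higher in the SmoM2 bulge, 224 were also higher in the untreated bulge, which is 42.6% of the first set and 21.9% of the second. Of the 224 lower genes, 65 were also lower in the untreated bulge, 29.0% of the first set and 8.09% of the second. A further 71 genes were higher with SmoM2 and lower in controls, 13.5% of the higher genes against 5.62% of all genes. Another 20 were lower with SmoM2 and higher in controls, 8.93% of the lower genes. That is near the 7.16% of all genes that were higher in controls. The 1826 genes called in the untreated pair had a median absolute difference of 1.59 there and of 0.532 with SmoM2, which is a description, since the first value chose them. The difference between the 2 contrasts was tested with limma, and 0 genes passed, with 1020 at an unadjusted p under 0.05. The lowest adjusted p was 0.064, for Pid1, which read 5.20 in the SmoM2 bulge against 4.34, 4.94 and 4.53, and 8.28 in the untreated bulge against 4.25 to 4.37. Castor2 and Fn1 had the same form: Fn1, fibronectin, read 8.83 against 7.65, 7.13 and 8.12 with SmoM2 and 12.27 against 6.24 to 7.00 without. In the other direction, Ano1, a chloride channel, read 9.65 against 10.36, 10.38 and 10.79 with SmoM2 and 7.76 against 10.66 to 10.95 without, and Klf5, an epithelial transcription factor, read 8.65 against 9.46, 10.13 and 10.12 with SmoM2 and 7.22 against 10.68 to 11.08 without. With 1 array in each bulge group these tests rest on the assumed spread.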

How the data were processed

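Per the labels' protocols, total RNA of the sorted cells was amplified by a 3′ IVT kit for Affymetrix arrays. The values deposited by the authors, 45101 probe sets by 16 arrays, are log2 signals judging by their range, and array medians run from 5.38 to 5.53. The submitters' processing notes name R 2.14.0. How background, normalization and probe set summary were handled is not given in the sources used here, nor is a genome build, and no further normalization was applied. Precision is limited by how few arrays there are per group.

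The array annotation names 1 gene for 34958 probe sets, several for 932 and none for 9211 (array controls, 64, were dropped). RefSeq identifiers matched 34754 of the first kind, with 0 symbols replaced. For each of 18193 genes the probe set with the highest mean over all 16 arrays was taken. Genes above the 40th percentile (log2 signal 4.88 to 5.01) on 2 arrays or more were tested, 14285 in all. Another 30 genes passed that level in the bulge SmoM2 array alone and were not tested, so counts of higher genes leave them out.

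limma 3.58.1 (R 4.3.3) was fitted to 8 groups with empirical Bayes moderation (8 residual degrees of freedom, 11.6 in total) and Benjamini-Hochberg adjustment over all genes tested. It was also run on simulated data in which the bulge array was given the same spread as the others. That run could not test the spread assumed for the lone bulge array. Other steps used Python 3.11.15 and pandas 2.3.3.

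The 33 gene lists hold 498 genes, of which 449 were tested, and the others are not analysed here. Members and lists were chosen with earlier results of these data known. The genes named were the 12 highest and 12 lowest differences, up to 4 called members of each list (else the 2 largest differences), a fixed set of markers, and, for the difference of differences, the 3 of lowest p each way. Others, among them limma's 16 genes and the remaining members of a list's count, were named after their values were seen, as were the motifs TATAAA and CTTTGAA. Alternatives were other filters, normalizations, probe set rules, size limits, fits and left-out replicates.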

Additional observations from a re-analysis of the deposited data

How the results depend on the processing

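No paired analysis was possible because the bulge SmoM2 group has 1 array, so the groups compared share fewer than 2 replicate numbers. No called gene changed direction under any of the 9 alternatives in which calls were compared gene by gene. For the other filters and the left-out replicates this was fixed in advance, since they cannot reverse a call. Of the 750 genes called, 575, 586 and 712 were still called without IFE SmoM2 replicates 1, 2 and 3. With the mean of all probe sets 527 were. The count of higher genes was 103 at a limit of 2 log2, 2810 at any size outside the range, and 544 to 833 with 1 IFE SmoM2 replicate left out. The count of lower genes was 147 with the mean of all probe sets, 29 at 2 log2, 3154 at any size, and 253 to 400 with 1 replicate left out. The number passing limma was 34 with array weights, 0 on the 4 arrays alone, and 6 to 29 with 1 replicate left out. For the difference between the contrasts with SmoM2 and in controls it was 3 without the filter, 120 with array weights and 0 to 3 with 1 replicate left out. Of 804 values of the named genes under the alternatives, 31 moved by more than the replicate spread and 13 had another sign, none of them in a called gene. Of 297 list medians, 17 moved so and 17 had another sign. For the 16 limma genes, 133 of 206 values stayed past the threshold. Adjusted p ranged from 0.0012 to 0.202 for Chn2 and from 0.014 to 0.254 for Spon1. Leaving out the Y-linked genes and leaving out IFE control replicates were chosen after seeing the data, and without the former 526 higher and 221 lower genes were left.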
